A study of Homo sapiens with 8 samples.

Results

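The genes described here are 41 listed stress regulators, amino acid transporters and cytosolic tRNA synthetases. They form the ATF4 arm of the stress response (36 genes), with 5 endoplasmic reticulum (ER) stress genes, the ER arm, kept apart. A member was measured where its symbol had an annotated probe set on the array, and where it had several the brightest over all arrays was taken. This held for 23 of the 41, out of 14884 named genes. They were 9 of 14 regulators, 12 of 12 synthetases and 2 of 5 ER-arm genes. None of the 10 transporters had an annotated probe set, so transport is not analysed here. The same holds for the regulators CHAC1, CEBPB, CEBPG, PPP1R15A and NUPR1 and for HSPA5, DNAJB9 and HERPUD1 of the ER arm.

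ATF4 is a basic leucine zipper transcription factor and the main effector of the integrated stress response. Stress kinases phosphorylate the initiation factor eIF2, which slows protein synthesis in general but lets ribosomes translate ATF4 mRNA. ATF4 then turns on genes for amino acid supply and tRNA charging, together with regulators such as DDIT3 and TRIB3 that limit growth and can promote cell death. Misfolded protein in the ER reaches ATF4 through the kinase PERK (gene EIF2AK3), while parallel branches through ATF6 and IRE1 raise ER chaperones and XBP1.

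RNA came from SCC13, an established line from a human skin squamous cell carcinoma, and was hybridised to 8 whole-transcript arrays in 4 groups of 2. All cells carried a short hairpin RNA. In the shEZH2 cells it was aimed at EZH2, the enzyme of Polycomb repressive complex 2 that methylates histone H3, in the shRING1B cells at RING1B, the ubiquitin ligase of Polycomb repressive complex 1, in the shBMI1 cells at BMI1, its partner in that complex, and in the control shGFP cells at green fluorescent protein. The labels name no cultures, so the spread within each pair of arrays, on which every p-value here rests, may be technical. Every array has SCC13 as its cell line, yet both shEZH2 arrays are titled SCCL3 where the other 6 are titled SCC13. In every value below, a difference in line or batch and the shEZH2 hairpin itself cannot be told apart.

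EZH2 had log2 levels of 8.95 and 9.03 with shEZH2, 9.62 and 9.86 with shRING1B, 9.74 and 9.93 with shBMI1, and 9.83 and 9.97 with shGFP. It fell by 0.91 ± 0.12 (SE) in shEZH2 cells relative to shGFP cells (limma, adjusted p = 0.0183). The genes for BMI1 and RING1B had no annotated probe set, so these knockdowns were not checked. The keratinocyte markers KRT5, KRT14, SFN, EPCAM, DSP and DSG3, the 6 of 10 listed with an annotated probe set, all lay at a log2 level of 8.83 or higher on every array. Their summed level on the linear scale was 9659 to 9893 with shEZH2, 8175 to 8264 with shRING1B, 8520 to 8992 with shBMI1, and 9600 to 10066 with shGFP. Array medians lay between 5.49 and 5.52, and the correlation over genes was 0.995 to 0.996 within a hairpin and 0.992 to 0.996 between hairpins.

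The promoters of the members were read for the elements through which these pathways act. ATF4 binds composite C/EBP-ATF response elements with the core TGATGNAA (N is any base), searched on both strands from 250 bases before to 50 bases after each RefSeq start site in GRCh38.p14. Of 12 synthetase members, 10 had such a window, and the core stood in 7 of them, against 4.46% of 27305 genes. These synthetases were listed as ATF4 targets from general knowledge, some of which rests on such elements. The 7 stretches are shown because they hold the letters ATF4 is known to bind, with the core in capitals, on the strand of the gene.
AARS1: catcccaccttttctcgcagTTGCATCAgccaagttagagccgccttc
CARS1: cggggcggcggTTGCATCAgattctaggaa
GARS1: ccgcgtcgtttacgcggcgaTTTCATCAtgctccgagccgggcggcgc
IARS1: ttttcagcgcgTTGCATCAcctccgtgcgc
MARS1: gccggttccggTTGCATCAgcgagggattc
NARS1: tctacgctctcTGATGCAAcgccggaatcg
TARS1: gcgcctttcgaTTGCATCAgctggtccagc
In the order shown they lie at chr16:70289666-70289713 (minus strand), chr11:3057407-3057436 (minus), chr7:30594825-30594872 (plus), chr9:92293692-92293721 (minus), chr12:57488053-57488082 (plus), chr18:57621804-57621833 (minus) and chr5:33440956-33440985 (plus). In 6 of the 7 the match lay on the strand opposite to the gene, NARS1 being the exception. EPRS1, SARS1 and WARS1 had no match in their windows. None of the 9 other cytosolic synthetase and scaffold genes with a window held the core.

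Among the regulators, the core stood in 3 of 12 windows, those of ATF3, CHAC1 and CEBPG, of which ATF3 was measured. TRIB3, SESN2 and VLDLR had no match in these windows. Of the transporters, 5 of 9 held it: SLC1A4, SLC1A5, SLC38A1, SLC3A2 and SLC7A1. In the ER arm the core stood in 1 of 5 windows, that of HERPUD1, and other elements were also found there. The ER stress response element, bound by ATF6 with NF-Y, is CCAAT and CCACG with any 9 bases between, and 0.0916% of genes held it on either strand. XBP1 and HSPA5 were among them. A shorter form, ATTGG and CCACG with any 1 base between, stood in SDF2L1 and HERPUD1 and in 0.0696% of genes. The letters TGACGTGG of the unfolded protein response element, bound by ATF6 and XBP1, stood in CARS1 alone among these members and in 0.927% of genes. None of the stretches printed overlapped a match to another of the 4 motifs. The 2 measured ER-arm genes are shown because each holds a different form of this element, in capitals.
XBP1: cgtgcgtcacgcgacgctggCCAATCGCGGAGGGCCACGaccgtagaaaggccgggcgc
SDF2L1: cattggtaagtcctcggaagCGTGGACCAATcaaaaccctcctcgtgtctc
They lie at chr22:28800583-28800641 (minus strand) and chr22:21642094-21642144 (plus).

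In shEZH2 cells 3 of 9 regulators rose relative to shGFP cells and the ER-arm gene XBP1 rose with them. These were TRIB3, a pseudokinase induced by ATF4 and DDIT3 that binds the kinase AKT, VLDLR, a lipoprotein receptor that ATF4 induces, and SESN2, a stress-induced inhibitor of the growth kinase mTORC1. The rest of the ATF4 arm passed no test, although 20 of its 21 measured members had a positive difference. The median was 0.32, against -0.01 over all genes. A gene was called where limma gave a two-sided Benjamini-Hochberg adjusted p under 0.05 over all 14884 genes, and errors after a difference are standard errors of that fit. By this rule 4 of 23 members were called, all higher, against 0.732% of all genes called and 0.558% called higher.

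TRIB3 (probe set 16910609) had log2 levels of 9.73 and 9.58 with shEZH2, 9.33 and 8.97 with shRING1B, 8.56 and 8.69 with shBMI1, and 8.67 and 8.54 with shGFP. The shEZH2 arrays lay above all others, the shRING1B arrays between, and the shBMI1 and shGFP arrays overlapped. The difference between shEZH2 and shGFP was 1.05 ± 0.13, a 2.07-fold higher level (limma, adjusted p = 0.0174).

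VLDLR (17083197) had 6.08 and 6.28 with shEZH2, 5.62 and 5.20 with shRING1B, 5.25 and 5.08 with shBMI1, and 5.08 and 5.32 with shGFP. Only the shEZH2 arrays stood apart, and the other 3 groups overlapped. The difference from shGFP was 0.98 ± 0.16, or 1.98-fold (limma, adjusted p = 0.0394). VLDLR was dim, at percentile 27.9 of all genes by mean level over the 8 arrays.

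SESN2 (16661544) had 10.06 and 10.01 with shEZH2, 9.58 and 9.31 with shRING1B, 9.19 and 9.31 with shBMI1, and 9.25 and 9.41 with shGFP. Again the shEZH2 arrays lay above the other 6, which overlapped between groups. The difference from shGFP was 0.70 ± 0.12, or 1.63-fold (limma, adjusted p = 0.0435).

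**Figure D1:**
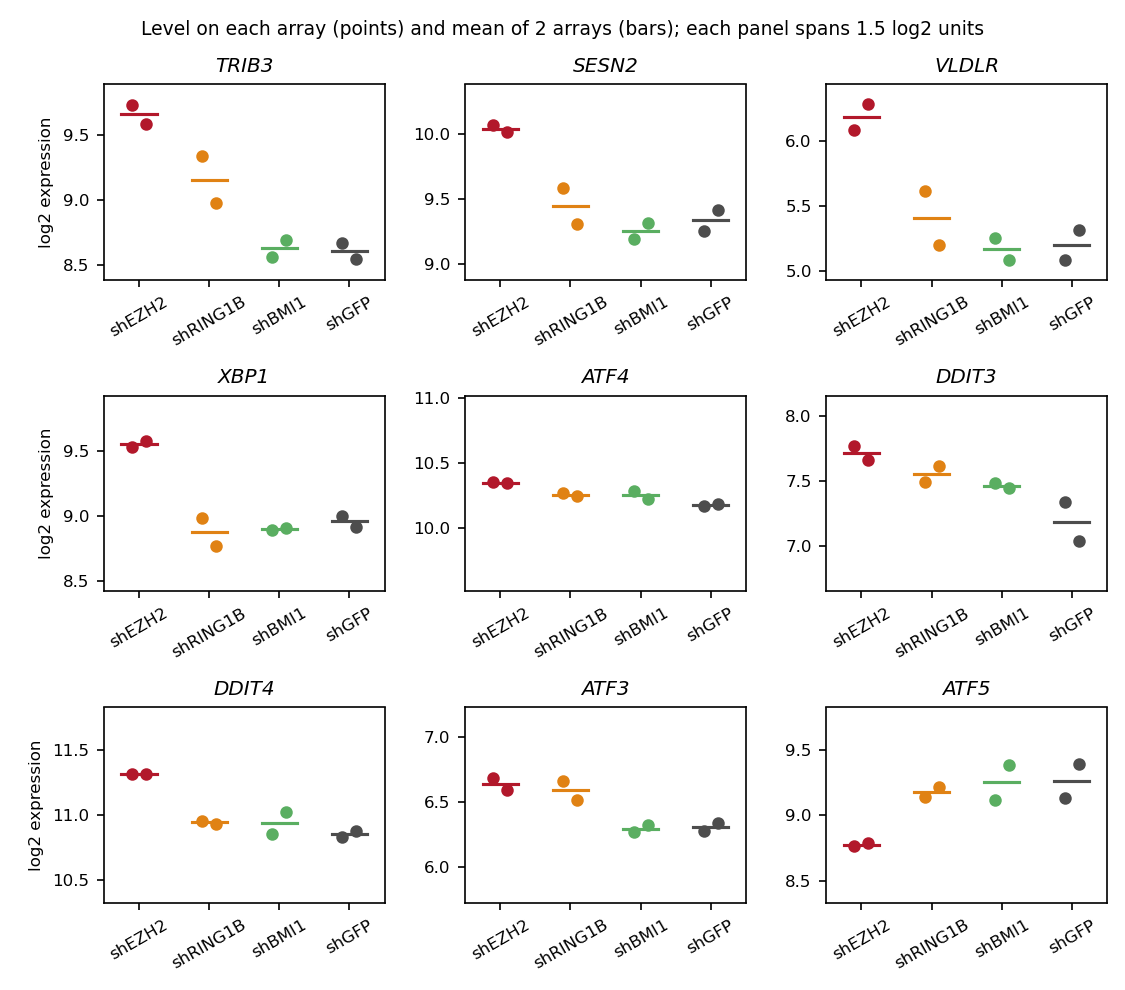
The log2 level of 9 members is plotted for each array (points) by hairpin, with the mean of the 2 arrays as a bar. The shEZH2 arrays lie above the other 6 for TRIB3, SESN2, VLDLR, XBP1, ATF4, DDIT3 and DDIT4, overlap the shRING1B arrays for ATF3, and lie below the other 6 for ATF5.

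The mRNA of ATF4 itself had 10.36 and 10.34 with shEZH2, 10.27 and 10.25 with shRING1B, 10.28 and 10.22 with shBMI1, and 10.17 and 10.18 with shGFP. All 6 knockdown arrays lay above both shGFP arrays. The difference between shEZH2 and shGFP was 0.17 ± 0.08 and did not pass (limma, adjusted p = 0.336). Arrays do not measure ATF4 protein, whose supply is set in large part by translation.

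DDIT3, which encodes the death-promoting factor CHOP, had 7.77 and 7.67 with shEZH2, 7.49 and 7.61 with shRING1B, 7.49 and 7.45 with shBMI1, and 7.34 and 7.04 with shGFP. Here too every knockdown array lay above both shGFP arrays, and the shGFP arrays were the most spread. The 3 differences were 0.53 ± 0.12, 0.37 ± 0.12 and 0.28 ± 0.12 in the same order of knockdowns, and none passed (limma, adjusted p = 0.0892, 0.432 and 0.884). These comparisons share the shGFP arrays.

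Of the other regulators, DDIT4, a second inhibitor of mTORC1, was 0.46 ± 0.09 higher in shEZH2 than in shGFP cells, and EIF4EBP1, which restrains cap-dependent translation, was 0.50 ± 0.10 higher. ATF3, a stress-induced transcription factor, was 0.33 ± 0.09 higher. None of the 3 passed (limma, adjusted p = 0.0755, 0.0777 and 0.141). ATF5, a factor under the same translational control as ATF4, was the exception in direction. It had 8.77 and 8.79 with shEZH2, 9.14 and 9.22 with shRING1B, 9.12 and 9.39 with shBMI1, and 9.14 and 9.39 with shGFP. Both shEZH2 arrays lay below the other 6, and the difference from shGFP of -0.49 ± 0.12 did not pass (limma, adjusted p = 0.117). Over the 9 regulators the median difference was 0.50, from -0.49 for ATF5 to 1.05 for TRIB3. DDIT3, DDIT4, EIF4EBP1 and, in the lower direction, ATF5 were called when limma's variance was fitted as trended and robust. More of all 14884 genes were called in that fit too, 281 higher and 367 lower, against 83 and 26 without it.

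**Figure D2:**
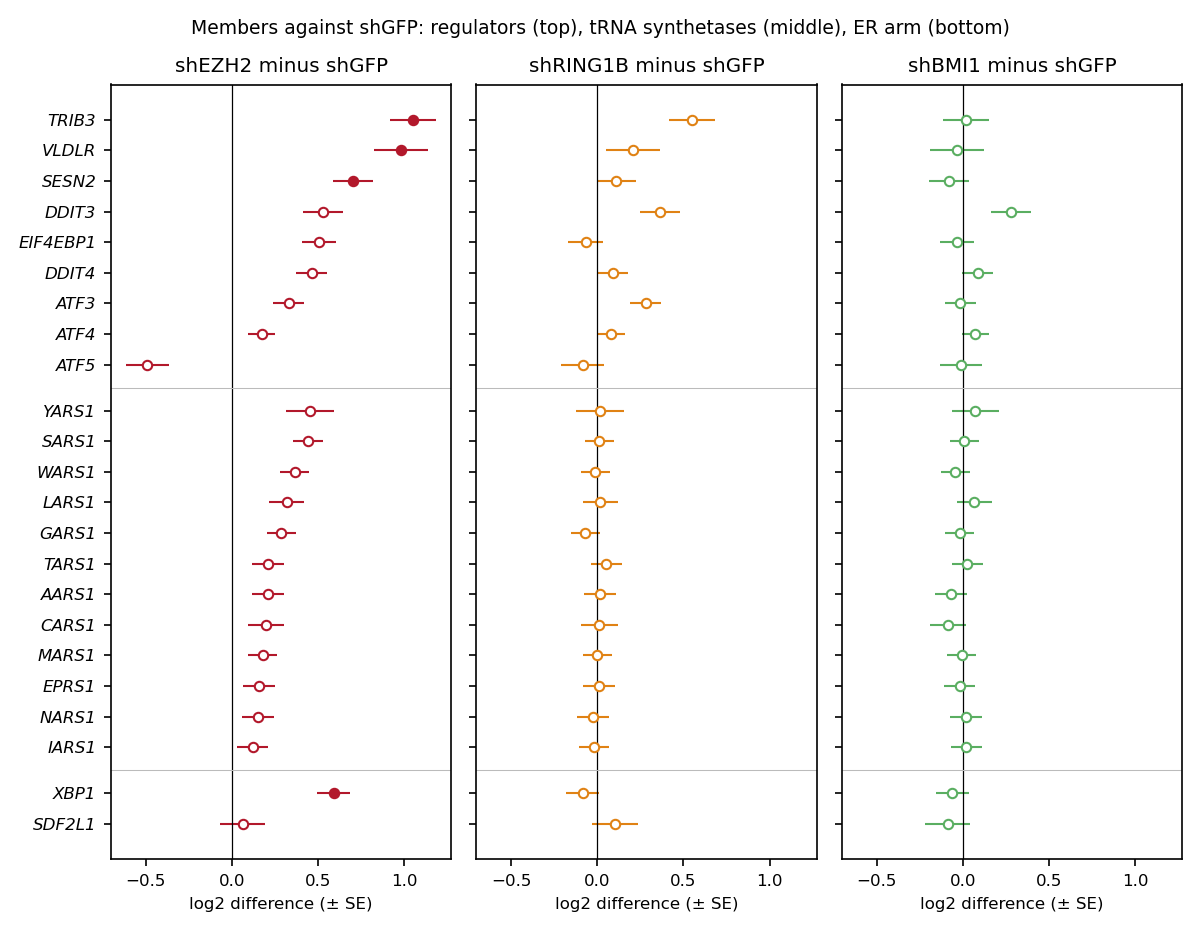
The log2 difference from shGFP (points) with its standard error (bars) is plotted for the 23 measured members in shEZH2, shRING1B and shBMI1 cells, with called members filled. TRIB3, VLDLR, SESN2 and XBP1 are the filled points, all with shEZH2, and the synthetases lie right of 0 with shEZH2 and around 0 with the other hairpins.

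The 12 cytosolic tRNA synthetases, which charge tRNAs with their amino acids, all had a small positive difference in shEZH2 cells, and none passed the test. Differences from shGFP ran from 0.12 ± 0.09 for IARS1 (isoleucine) to 0.46 ± 0.14 for YARS1 (tyrosine), with a median of 0.21. The smallest p was that of SARS1 (serine), at 0.44 ± 0.08 (limma, adjusted p = 0.074). SARS1 had 10.63 and 10.59 with shEZH2, 10.24 and 10.12 with shRING1B, 10.17 and 10.18 with shBMI1, and 10.16 and 10.18 with shGFP. For each of the 12, both shEZH2 arrays lay above the other 6 arrays, which held for 9.24% of all genes, with 11.9% below the other 6. Both shEZH2 arrays lay above both shGFP arrays for 23.1% of all genes and below both for 27.0%. At an unadjusted p under 0.05, 6 of the 12 were higher and none lower, against 7.53% and 8.65% of all genes. With a trended and robust variance GARS1, LARS1, SARS1, WARS1 and YARS1 were called, all higher, and the other 7 were not. That variance called 281 of all 14884 genes higher and 367 lower, against 83 and 26 without it.

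The synthetases also shifted together between arrays of 1 hairpin. With shGFP, 11 of the 12 were higher on replicate 1 than on replicate 2, against 49.1% of all genes, and the median gap was 0.09. With shRING1B this held for 10, with shBMI1 for 9 and with shEZH2 for 6. The 12 genes are therefore not 12 separate observations of a condition.

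In shRING1B cells the 12 differences from shGFP lay between -0.07 and 0.05, and in shBMI1 cells between -0.09 and 0.07, with standard errors of 0.08 to 0.14. At that error differences as small as those in shEZH2 cells are not called. The 7 members with a C/EBP-ATF core in the promoter window, shown above, had a median difference of 0.20 in shEZH2 cells (0.12 to 0.29). The 3 without a match had a median of 0.36 (0.16 for EPRS1 to 0.44 for SARS1). LARS1 and YARS1, for which no window was held, had 0.32 and 0.46. WARS1 (tryptophan) has 2 probe sets, with differences of 0.36 for the brighter one used and 0.20 for the other.

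**Figure D3:**
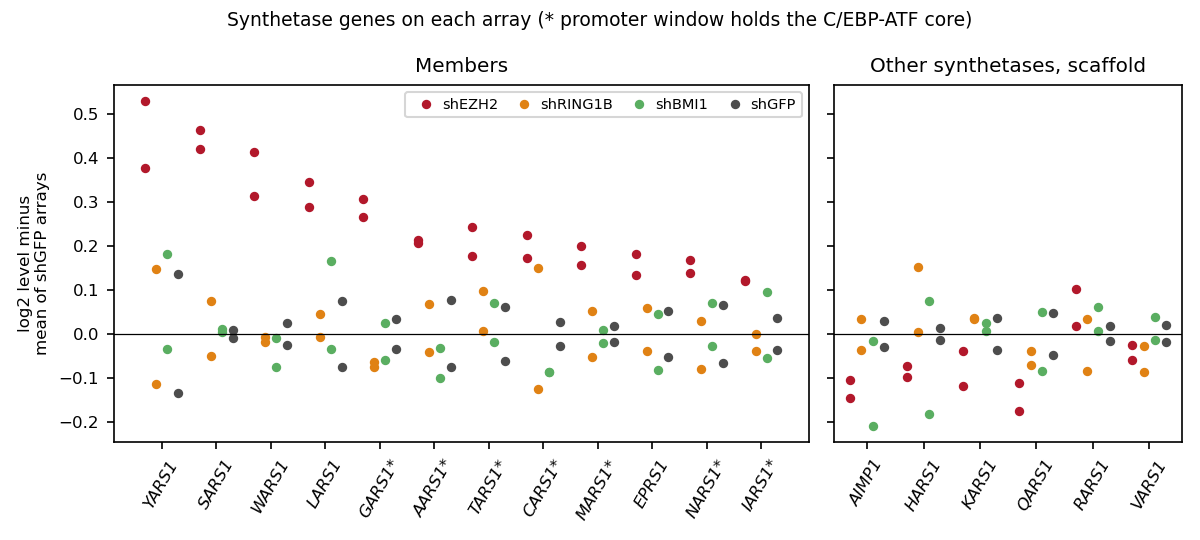
The log2 level of each synthetase gene on each array is plotted relative to the mean of the 2 shGFP arrays, for the 12 members (left) and the 6 measured cytosolic synthetase and scaffold genes not listed as ATF4 targets (right). An asterisk marks a promoter window with the C/EBP-ATF core, and both shEZH2 points lie above the other 6 for each of the 12 members and for none of the 6 others.

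The 2 measured ER-arm genes differed from each other. XBP1 (16933535), a transcription factor of the unfolded protein response whose mRNA is spliced by IRE1, had 9.53 and 9.57 with shEZH2, 8.98 and 8.77 with shRING1B, 8.89 and 8.91 with shBMI1, and 9.001 and 8.917 with shGFP. The shEZH2 arrays lay above the other 6 by more than the spread of any group. The difference from shGFP was 0.59 ± 0.10, or 1.51-fold (limma, adjusted p = 0.0435). The probe set gives 1 level and does not separate spliced from unspliced mRNA.

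SDF2L1, an ER protein that works with chaperones, had 8.03 and 7.94 with shEZH2, 8.16 and 7.88 with shRING1B, 7.69 and 7.98 with shBMI1, and 7.97 and 7.88 with shGFP. All 4 groups overlapped, and the difference between shEZH2 and shGFP was 0.06 ± 0.13 (limma, adjusted p = 0.854). With 2 measured genes and no annotated HSPA5, the defining ER chaperone, the ER arm is thinly covered.

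The 4 calls between shEZH2 and shGFP depended on each array of the pair. Each call was lost without either shEZH2 array or either shGFP array. Without either shBMI1 array VLDLR, SESN2 and XBP1 lost their call, while without either shRING1B array none did. The shBMI1 and shRING1B arrays enter this comparison only through the estimate of spread. Why the shBMI1 and shRING1B arrays differed in this was not tested. With only the 4 arrays compared in the fit, TRIB3 alone was called (limma, adjusted p = 0.055 for VLDLR, 0.0697 for SESN2 and 0.0806 for XBP1). SESN2 and XBP1 were not called after median centring, nor VLDLR after quantile normalization, and none of the 4 was called with all probe sets tested. The 4 differences stayed positive without each array, from 0.55 for XBP1 to 1.12 for TRIB3. An exact permutation test of 2 arrays against 2 cannot give a p below 0.333.

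Set against shRING1B cells, shEZH2 cells had a higher level of XBP1, the only 1 of 23 members called, against 0.578% of all genes. The difference was 0.68 ± 0.10 (limma, adjusted p = 0.0272). The ATF4 arm had a median difference of 0.20, against -0.01 over all genes, with 20 of 21 positive and none called. VLDLR at 0.77 ± 0.16, SESN2 at 0.59 ± 0.12, EIF4EBP1 at 0.57 ± 0.10 and TRIB3 at 0.50 ± 0.13 did not pass (limma, adjusted p = 0.0828, 0.0785, 0.0592 and 0.144). ATF3 differed by 0.05 ± 0.09, its shEZH2 and shRING1B arrays overlapping. At an unadjusted p under 0.05, 10 of the 21 were higher and 1 lower, against 7.35% and 8.22% of all genes. When any 1 of the 8 arrays was left out, XBP1 was not called.

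Set against shBMI1 cells, shEZH2 cells had 4 of 23 members called, all higher, against 0.974% of all genes called and 0.692% called higher. TRIB3 was higher by 1.03 ± 0.13, VLDLR by 1.02 ± 0.16, SESN2 by 0.78 ± 0.12 and XBP1 by 0.65 ± 0.10 (limma, adjusted p = 0.0153, 0.0282, 0.0245 and 0.025). The ATF4 arm had a median of 0.29 and the synthetases one of 0.26, from 0.10 to 0.43, with no synthetase called. At an unadjusted p under 0.05, 7 of the 12 synthetases were higher and none lower, against 7.75% and 7.32% of all genes. ATF5 lay at -0.48 ± 0.12 and did not pass (limma, adjusted p = 0.124). Without either shEZH2 array or either shBMI1 array none of the 4 was called. The shEZH2 arrays are shared by these comparisons and by the one with shGFP.

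In shRING1B cells no member was called relative to shGFP, nor was any of all genes (0% by limma). At an unadjusted p under 0.05, 3 of 23 members were higher and none lower, against 4.80% and 3.80% of all genes. The 3 were TRIB3 at 0.55 ± 0.13, DDIT3 at 0.37 ± 0.12 and ATF3 at 0.28 ± 0.09 (limma, adjusted p = 0.346, 0.432 and 0.434). For ATF3 the levels were 6.68 and 6.59 with shEZH2, 6.66 and 6.52 with shRING1B, 6.27 and 6.32 with shBMI1, and 6.28 and 6.34 with shGFP. The shRING1B arrays thus lay with those of shEZH2 and apart from those of shBMI1 and shGFP. VLDLR at 0.21 ± 0.16, SESN2 at 0.11 ± 0.12 and XBP1 at -0.08 ± 0.10 had overlapping arrays. The median of the ATF4 arm was 0.01.

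In shBMI1 cells no member was called relative to shGFP either (0% of all genes by limma). At an unadjusted p under 0.05 only DDIT3 was higher and none lower, against 2.89% and 2.69% of all genes. The largest difference of the other members in size was 0.09, and the median of the ATF4 arm was -0.01. Between shRING1B and shBMI1 cells no member was called, against 0.0134% of all genes. TRIB3 at 0.53 ± 0.13 and ATF3 at 0.30 ± 0.09 were the only members with an unadjusted p under 0.05 (limma, adjusted p = 0.292 and 0.385), against 5.21% of all genes higher and 3.98% lower at that threshold.

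Other genes of the pathway were read on the same arrays, in lists also chosen with earlier results of these data known. Of 25 further ATF4 targets, 17 were measured, and 6 rose with shEZH2 relative to shGFP, with none lower, against 0.558% of all genes called higher and 0.175% called lower. Without either shEZH2 array no gene of the whole table was called in this comparison, these 6 included. Fewer genes of the whole table were also called without either shGFP array, and whether these 6 targets were among them is not given here. Over the 17 measured targets the median difference was 0.56, with all 8 arrays in the fit. STC2, a secreted glycoprotein, was higher by 1.48 ± 0.17, and PSAT1 and CTH, enzymes of serine synthesis and of cysteine formation, by 1.38 ± 0.16 and 1.36 ± 0.09. ASNS, asparagine synthetase, was higher by 1.27 ± 0.13 (limma, adjusted p = 0.0109, 0.0119, 0.00326 and 0.00868 for the 4). ASNS had 8.89 and 9.03 with shEZH2, 7.93 and 7.56 with shRING1B, 7.63 and 7.61 with shBMI1, and 7.72 and 7.65 with shGFP. Both shEZH2 arrays of ASNS lay above the other 6.

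Of the 6 measured cytosolic synthetase and scaffold genes not listed as ATF4 targets, 5 had a negative difference in shEZH2 cells, as did 7727 of all 14884 genes. The median of the 6 was -0.08 (-0.14 to 0.06), and none was called, against 0.732% of all genes. The lists were drawn up with earlier results of these data known, so listed and unlisted synthetases are not an independent contrast. Upstream of ATF4, none of 8 measured genes was called, against the same 0.732%. EIF2AK3, the PERK kinase, had the smallest p at 0.41 ± 0.08 (limma, adjusted p = 0.0853). It had 7.53 and 7.65 with shEZH2, 7.42 and 7.45 with shRING1B, 7.21 and 7.20 with shBMI1, and 7.18 and 7.18 with shGFP. Both the shEZH2 and the shRING1B arrays lay above the shGFP arrays, and the shRING1B difference of 0.25 ± 0.08 did not pass (limma, adjusted p = 0.442).

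Of 28 further ER stress genes 16 were measured, none was called with shEZH2, and their median was 0.04. CREB3L2, an ER-bound transcription factor, had the smallest p at 0.27 ± 0.08 (limma, adjusted p = 0.184). None of 6 NRF2 targets, 4 p53 targets or 5 cytosolic heat shock genes was called with shEZH2, with medians of 0.00, -0.06 and -0.09. With 0.732% of all genes called in this comparison, the absence of calls in lists this short says little about them. The oxidative stress gene TXNRD1 stood at 0.40 ± 0.09 and the p53 target TP53INP1 at 0.63 ± 0.19 (limma, adjusted p = 0.0933 and 0.178). At an unadjusted p under 0.05, 1 upstream gene, 2 ER stress genes, 2 NRF2 targets, 1 p53 target and no heat shock gene or other synthetase were higher, and none was lower. The same threshold took 14 of the 17 other ATF4 targets as higher and none as lower, against 7.53% and 8.65% of all genes. With shRING1B and shBMI1 none of these lists, other ATF4 targets included, had a called member, nor was any of all genes called. At the unadjusted threshold 3 of 17 other ATF4 targets were higher with shRING1B, against 4.80% of all genes, and 0 with shBMI1, against 2.89%. Mitochondrial synthetases and other amino acid transporters had no annotated probe set.

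**Figure D4:**
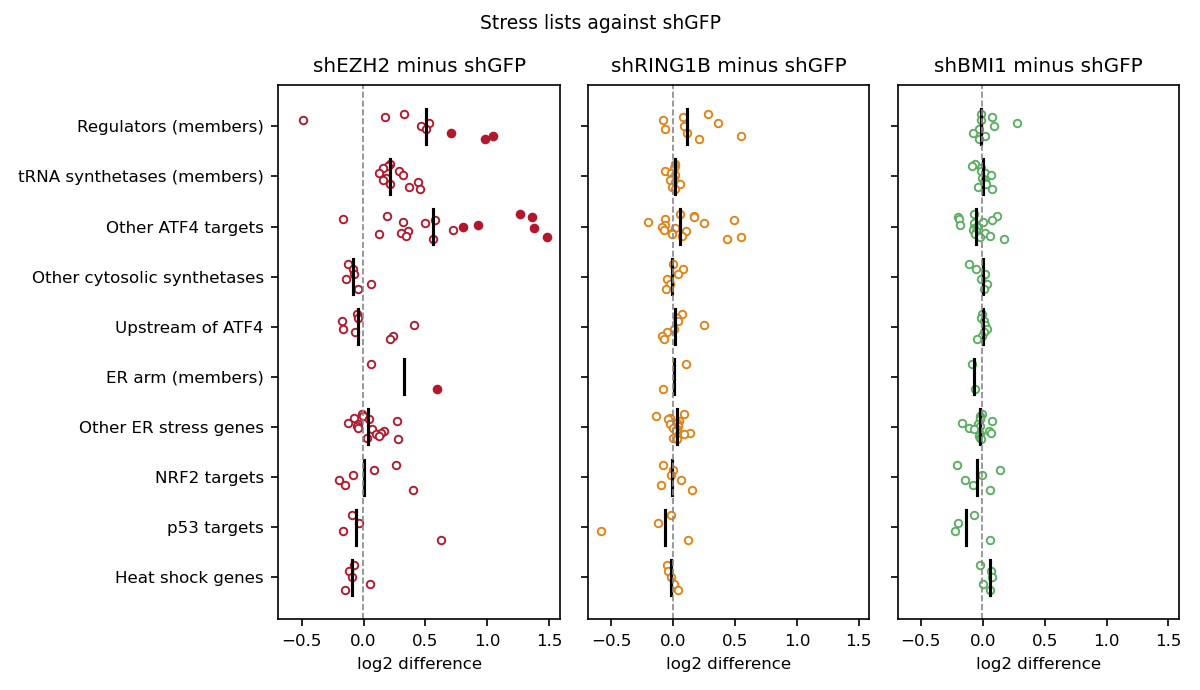
The log2 difference from shGFP of each measured gene (points, filled where called) is plotted by list for shEZH2, shRING1B and shBMI1, with the list's median as a black bar and the median of all genes as a dashed line. With shEZH2 the medians of the regulators, of the synthetase members and of the other ATF4 targets are 0.50, 0.21 and 0.56, against -0.08 for the other synthetases and 0.04 for the other ER stress genes.

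Markers of other cell types moved with the shEZH2 arrays in part. Of 8 fibroblast markers 3 were measured, and DCN rose in shEZH2 relative to shGFP cells by 0.93 ± 0.10 (limma, adjusted p = 0.0109). Of all genes 0.558% were called higher in this comparison. LUM lay at 0.89 ± 0.23 and did not pass (limma, adjusted p = 0.12). At an unadjusted p under 0.05, 2 of the 3 were higher, against 7.53% of all genes. LUM was dim, at percentile 12.2 of all genes by mean level over the 8 arrays. The summed level of DCN, LUM and THY1 on the linear scale was 347 to 352 with shEZH2, 221 to 248 with shRING1B, 266 to 286 with shBMI1, and 218 to 229 with shGFP. Among the keratinocyte markers, none of the 6 was called with shEZH2 relative to shGFP, against 0.732% of all genes. At an unadjusted p under 0.05, 1 was higher and 1 lower, against 7.53% and 8.65% of all genes. KRT14, a basal keratin, lay at -0.57 ± 0.13 and DSG3, a desmosomal cadherin, at 0.43 ± 0.13 (limma, adjusted p = 0.0999 and 0.176). KRT14 averaged 9.10 ± 0.04 with shEZH2, 9.17 ± 0.18 with shRING1B, 9.37 ± 0.22 with shBMI1 and 9.67 ± 0.08 with shGFP (SD, n = 2 each). It was thus below shGFP with every knockdown. At the unadjusted threshold 4 of the 6 markers were lower with shRING1B and 0 higher, against 3.80% and 4.80% of all genes. With shBMI1 1 was lower and 0 higher, against 2.69% and 2.89%. DSG3 averaged 10.35 ± 0.03 with shEZH2, 9.34 ± 0.17 with shRING1B, 9.44 ± 0.04 with shBMI1 and 9.92 ± 0.23 with shGFP (SD, n = 2 each). It was called higher with shEZH2 relative to shRING1B and to shBMI1 (limma, adjusted p = 0.0187 and 0.022). Of 5 melanocyte markers 4 were measured, and MLANA rose by 0.64 ± 0.11 (limma, adjusted p = 0.046). MLANA was dim, with means of 4.83 with shEZH2 and 4.18 with shGFP, at percentile 10.7 of all genes by mean level. PMEL, TYR and MITF were not called. The summed level of the 4 was 175 to 188 with shEZH2, 172 to 185 with shRING1B, 163 to 167 with shBMI1, and 171 to 185 with shGFP. The 3 measured of 8 leukocyte markers summed to 2157 to 2298 with shEZH2, 1820 to 2156 with shRING1B, 1942 to 2075 with shBMI1, and 2007 to 2034 with shGFP. Most of that sum was CD68, at a mean log2 level of 10.93 over the 8 arrays. CD14 lay at 6.32 and LYZ at 4.37. The 3 measured of 5 endothelial markers summed to 164 to 173 with shEZH2, 191 to 230 with shRING1B, 182 to 250 with shBMI1, and 169 to 170 with shGFP. None of these 6 was called with shEZH2, and 1 of them, an endothelial marker, was higher at an unadjusted p under 0.05, against 7.53% of all genes. No marker is listed at 0, since values are on a log2 scale with background, and COL1A1 and PTPRC had no annotated probe set. The part of other cell types in the differences of the members was not tested. In bulk RNA, more cells of a type and more RNA per cell cannot be told apart.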

How the data were processed

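The authors deposited log2 values for each probe set from RMA, named with limma in the submitters' processing notes. RMA corrects background, makes the distributions of all arrays equal and summarises the probes of a set. A shift common to most genes is therefore removed, and differences of dim genes are compressed. Neither their versions nor the genome build is given in the sources used here. The precision is limited by the number of arrays.

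Probe sets were named through the array's annotation table: 16098 of 53617 had 1 symbol, 0 had several and 37519 had none. Promoter windows came from a RefSeq table of GRCh38.p14. Group means over all 8 arrays were fitted with limma 3.58.1 in R 4.3.3 (4 residual degrees of freedom, no trend, no filter). The adjustment ran over 14884 genes within each comparison. Tables and figures were made in Python 3.11.15 with pandas 2.3.3 and matplotlib 3.10.9. The fitting step was tested on simulated data.

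Members and lists were chosen with earlier results of these data known. Values on all arrays are given for members called in any comparison and for ATF4, DDIT3 and XBP1. Further members shown so (ATF3, ATF5, SARS1, SDF2L1), and the values on each array of ASNS and EIF2AK3 and the markers LUM, KRT14 and DSG3, were chosen after their values were seen. The rest are given by range, with the highest and lowest of each role. From other lists the called genes, up to 4 by size, or else the gene with the smallest p are named for shEZH2 against shGFP.

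Replicate numbers come from the titles. Samples with the same number correlated in their deviations from the group means at 0.00 to 0.25. The range was 0.09 to 0.25 among shRING1B, shBMI1 and shGFP, and 0.00 to 0.09 between shEZH2 and each of them. No label gives these samples a shared origin, and they were not taken as pairs. Alternatives were a replicate block, fits on the 4 arrays compared or without shEZH2, quantile normalization or median centring, a filter on the dimmest 30%, a mean over a gene's probe sets, every probe set tested, array weights, trended and robust eBayes, protein-coding genes alone, and each array left out.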

Additional observations from a re-analysis of the deposited data

Results flagged for a closer look

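Differences from shGFP that themselves differ between hairpins were found for 4 members, each by a contrast of the 2 knockdowns in the fit over all genes. Relative to shBMI1 cells, shEZH2 cells had higher TRIB3, by 1.03 ± 0.13, SESN2, by 0.78 ± 0.12, VLDLR, by 1.02 ± 0.16, and XBP1, by 0.65 ± 0.10 (limma, adjusted p = 0.0153, 0.0245, 0.0282 and 0.025). Relative to shRING1B cells, shEZH2 cells had higher XBP1, by 0.68 ± 0.10 (limma, adjusted p = 0.0272). In each case both shEZH2 arrays lay above both arrays of the other hairpin. That held for 3413 of all 14884 genes against shBMI1 and for 3357 against shRING1B. The members were picked by these contrasts, so it adds nothing to the calls. The titles of the shEZH2 arrays carry another line name, and a line or batch cannot be told apart from the hairpin. Groups of 2 arrays are too small for a test of outlying arrays.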

How the results depend on the processing

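The number of members called, out of 4 for shEZH2 minus shGFP, 1 for shEZH2 minus shRING1B and 4 for shEZH2 minus shBMI1, depended on the fit. With only the 4 arrays compared it was 1, 0 and 3, with median centring 2, 1 and 4, and with all probe sets tested, named or not, 0 in each. Without the dimmest 30% of genes, which leaves out VLDLR, it was 8, 7 and 7, with protein-coding genes alone 7, 5 and 7, and with a trended robust variance 13, 10 and 11. More of all genes were called there too. For shEZH2 minus shGFP, 222 of 10419 were higher and 187 lower without the dimmest 30%. With protein-coding genes alone it was 116 and 53 of 11916. The trended robust variance gave 281 and 367 of 14884, against 83 and 26 without it. The 13 members included ATF5, lower in shEZH2 than in shGFP cells. Array weights gave 6 for shEZH2 minus shGFP, quantile normalization 3. Leaving out each array in turn gave 0 to 4, 0 to 0 and 0 to 4. For the other comparisons every alternative gave 0. The cause of the differences between variance models was not tested. The smaller adjustment over fewer genes is part of the construction of the filters.

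With the replicate number as a block, on 2 arrays a hairpin, 1 member was called for shEZH2 minus shGFP in place of 4 (VLDLR, SESN2 and XBP1 lost the call at adjusted p = 0.0623, 0.0638 and 0.0547), 1 for shEZH2 minus shRING1B and 3 for shEZH2 minus shBMI1 (VLDLR, adjusted p = 0.05002). The numbers share no stated origin.

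No called difference of a member changed sign. Over the alternatives the median of the ATF4 arm in shEZH2 minus shGFP stayed between 0.25 and 0.33. Of its members 20 of 21 were positive, or 19 of 20 without the dimmest 30%, which leaves out VLDLR. The medians near 0 for shRING1B (-0.04 to 0.07) and shBMI1 (-0.02 to 0.02) had no stable sign. All genes called ranged from 0 to 648 for shEZH2 minus shGFP, 0 to 36 for shRING1B, 0 to 555 for shEZH2 minus shRING1B, 2 to 640 for shEZH2 minus shBMI1 and 0 to 38 for shRING1B minus shBMI1. The split of calls in shEZH2 minus shBMI1, 103 higher and 42 lower, was 87 and 67 under median centring. In shEZH2 minus shGFP, 83 higher and 26 lower became 222 and 187 without the dimmest 30%, and with a trended robust variance most calls were lower, 281 higher and 367 lower. In shEZH2 minus shRING1B, 53 and 33 likewise became 264 and 291 with that variance.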

Other observations

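Besides the 4 named, PCK2, the mitochondrial enzyme that makes phosphoenolpyruvate, and PHGDH, which starts serine synthesis, were the called genes among the other ATF4 targets with shEZH2. PCK2 had log2 levels of 8.81 and 8.58 with shEZH2, 7.71 and 7.70 with shRING1B, 7.53 and 7.63 with shBMI1, and 7.73 and 7.81 with shGFP. PHGDH had 9.47 and 9.35 with shEZH2, 8.59 and 8.44 with shRING1B, 8.50 and 8.61 with shBMI1, and 8.70 and 8.51 with shGFP. For both, the shEZH2 arrays lay above the other 6. The differences between shEZH2 and shGFP were 0.93 ± 0.10 and 0.81 ± 0.11 (limma, adjusted p = 0.0109 and 0.019).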
